A study of Mus musculus with 2 samples.

Results

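Chaperones are the proteins that help others to fold, and the unfolded protein response (UPR) is the pathway that raises them when misfolded protein builds up in the endoplasmic reticulum (ER). 44 genes of these systems were described, chosen from a list of symbols, and all 44 were among the 21911 genes of the table. They were divided by compartment and role into 12 cytosolic chaperones and their partners, 7 subunits of the cytosolic CCT ring, 3 mitochondrial chaperones, 15 ER chaperones and folding enzymes, 6 genes of UPR sensing and ER-associated degradation (ERAD), and Hsf1. The samples were 4T1 cells, a mouse mammary carcinoma line, given either PBS or potassium oxalate for 48 h, and polyadenylated RNA was sequenced in 1 library per condition. The oxalate dose is given as 20 µM in the sample label and as 20 mM in the treatment protocol. Both groups are the same cell line in culture, with no genetic change named in the labels. Levels are FPKM, which are scaled to transcript length and library size, and the PBS and oxalate values summed to 567163 and 559026 FPKM. The FPKM of a gene with several transcripts depends on the length it was divided by, and 29 of the 44 members have several coding transcripts. Comparisons between genes are therefore of FPKM only. The ratio given is log2((oxalate + 1)/(PBS + 1)), on which 1.2-fold is 0.26 and 1.5-fold is 0.58. With 1 library per condition there was no replicate error and no test of oxalate against PBS, so that every difference below is one between 2 libraries. In bulk RNA, fewer cells with a transcript and less of it per cell cannot be told apart.

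The libraries were estimated to hold about 56900000 (PBS) and 36500000 (oxalate) reads. Reads per gene estimated from this depth gave each member a 95% counting interval of the log2 ratio without a pseudocount. The interval leaves out all variation between cultures and takes the scaling of the listed FPKM as given. All 8 epithelial markers examined, among them Epcam, Krt8 and Cdh1, were between 46.06 and 703.31 FPKM with PBS. Ptprc, the pan-leukocyte marker, was listed at 0 in both libraries, and the 11 leukocyte markers summed to 13.01 FPKM with PBS and 12.29 with oxalate. The 5 endothelial markers summed to 0.10 and 0.11 FPKM, and the 5 erythroid markers to 0.17 and 0.13. Of the 7 fibroblast markers, Col1a1 was at 143.48 and 144.61 FPKM, whereas Pdgfrb was at 0.02 and 0.03 and Lum was listed at 0.

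In the cytosol, Hsp70 proteins take up unfolded chains with the help of Hsp40 (Dnaj) partners, pass some of them on to Hsp90, and are reset by Hsp110 exchange factors, while the CCT ring encloses actin and tubulin for folding. Heat shock factor 1, encoded by Hsf1, raises many of these genes after heat or proteotoxic stress. In the ER, BiP (Hspa5), Grp94 (Hsp90b1), the lectin chaperones and the disulfide isomerases fold secreted proteins. When they are overwhelmed, the sensors IRE1 (Ern1), PERK (Eif2ak3) and ATF6 (Atf6) start the UPR, in which ATF6 and spliced XBP1 act through a DNA element called ERSE in the promoters of ER chaperone genes.

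These elements are shown because they are the sites through which the UPR is known to raise the ER members. RefSeq promoter windows (GRCm38.p6, 250 bases before to 50 after the start) were found for 35 of the 44 members. ERSE was searched as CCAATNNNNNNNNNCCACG and its complement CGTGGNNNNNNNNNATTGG. It occurred in 37 of the 27025 genes with a window (0.137%), and 7 of these 37 were ER members, of 13 ER members with a window. No member of another group held one. The 8 matches are written 5′ to 3′ along the strand of the gene, with the fixed bases in capitals:
Hspa5, chr2:34772025-34772043: CCAATcggaggcctCCACG
Hsp90b1, chr10:86705638-86705656: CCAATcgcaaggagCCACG
Hsp90b1, chr10:86705533-86705551: CGTGGtgaggcacgATTGG
Calr, chr8:84847075-84847093: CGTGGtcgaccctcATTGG
Canx, chr11:50325800-50325818: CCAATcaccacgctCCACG
Pdia6, chr12:17266491-17266509: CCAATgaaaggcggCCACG
Creld2, chr15:88819520-88819538: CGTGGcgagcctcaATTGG
Dnajc3, chr14:118937827-118937845: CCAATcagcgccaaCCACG

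Hspa5, Pdia6, Creld2 and Dnajc3 lie on the plus strand, and Hsp90b1, Calr and Canx on the minus strand. The shorter element ERSE-II, searched as ATTGGNCCACG and its complement, was found in 12 genes with a window (0.0444%). 2 of them were members, the ER chaperone Dnajb11 and the ERAD gene Herpud1, neither of which held an ERSE. In Dnajb11 the match lies after the start. The heat shock element bound by HSF1, searched as GAANNTTCNNGAA or TTCNNGAANNTTC, was found in 179 genes with a window (0.662%). Of the 35 members with a window 3 matched, namely Hspd1, Hspe1 and Hsph1, and in Hsph1 the match lies after the start. Only 1 of 9 cytosolic members with a window matched, so Hspa1a, Hspa1b, Dnajb1 and Bag3 did not hold these exact letters. Hspd1 and Hspe1 are neighbours read in opposite directions and share 1 run of overlapping elements, which lies 72 to 89 bases before the start of Hspe1 and is given on its plus strand:
Hspe1 and Hspd1, chr1:55088059-55088076: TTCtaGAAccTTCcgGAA

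A match to these letters is a description of the promoter and not a measured binding site.

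43 members had a mean FPKM of at least 1 and were compared, and Hspb1 was not. Differences between the libraries were small. 0 of the 43 were at least 1.5-fold higher with oxalate and 0 at least 1.5-fold lower, beside 0.935% and 1.05% of the 10267 genes compared. Past 2-fold there were 0 members in either direction, beside 0.292% (higher) and 0.36% (lower) of all genes. At 1.2-fold, 0 members were higher, where 4.75% of all genes were. The 3 members at least 1.2-fold lower were Hspe1, Sdf2l1 and Manf, beside 5.19% of all genes. When both libraries were rescaled to the same FPKM sum, Manf, at -0.25, was no longer among them and 2 remained. Of the 43 members 17 were higher and 26 lower, which became 22 and 21 after that rescaling. 35 of the 43 members had a ratio within 0.1 of no difference, against 56.2% of all genes and 70.0% of the 967 genes with a mean of at least 100 FPKM. The median ratio was -0.014 over the members and 0.0031 over all genes, and it became 0.0070 over the members after rescaling, which moved the median of all genes to 0.023. Together the 44 genes held 2.91% of the FPKM sum with PBS and 2.89% with oxalate.

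**Figure D1:**
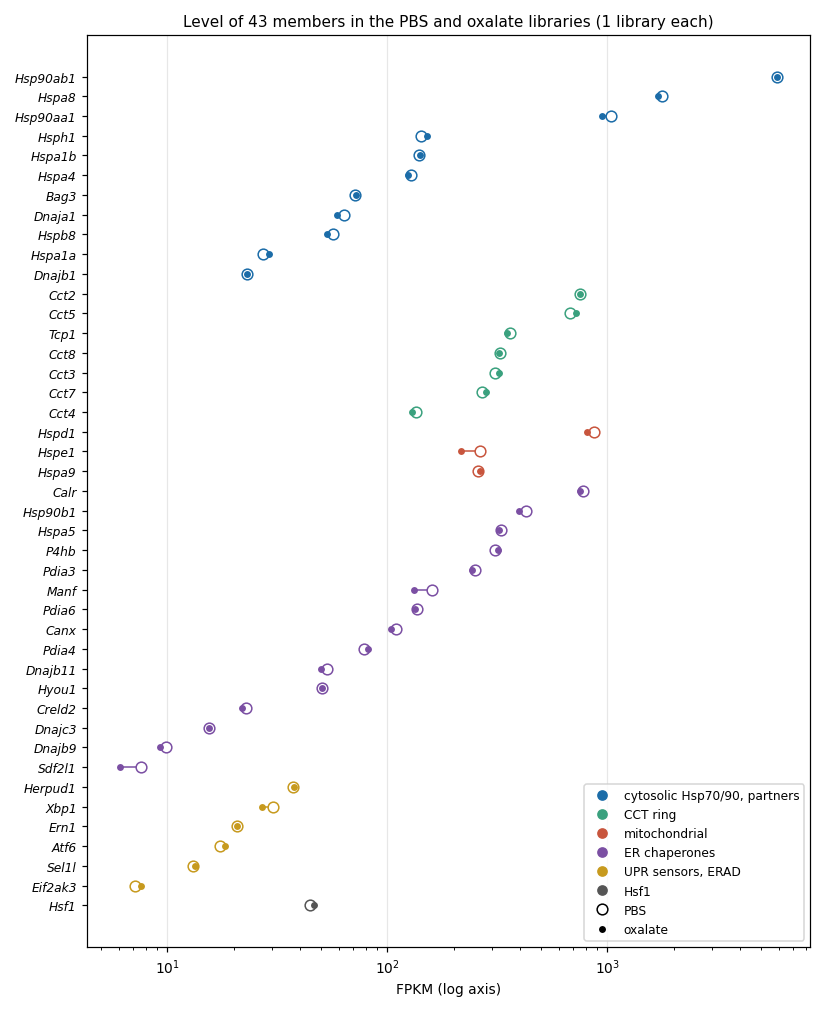
FPKM of 43 members (log axis) in the PBS library (open circles) and the oxalate library (filled points), 1 library each, grouped by compartment and ordered by the PBS level. Levels span from 7.11 (Eif2ak3) to 5922.8 FPKM (Hsp90ab1) with PBS, and the points of most genes lie within their open circles.

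The counting intervals of 27 of the 43 members (62.8%) did not include equal levels. This was so for 48.7% of the 10261 genes with a known length and for 72.6% of the 967 genes with a mean of at least 100 FPKM. The intervals are narrow because highly expressed genes carry many reads. They do not stand in for the spread between cultures or for the choice of scaling.

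**Figure D2:**
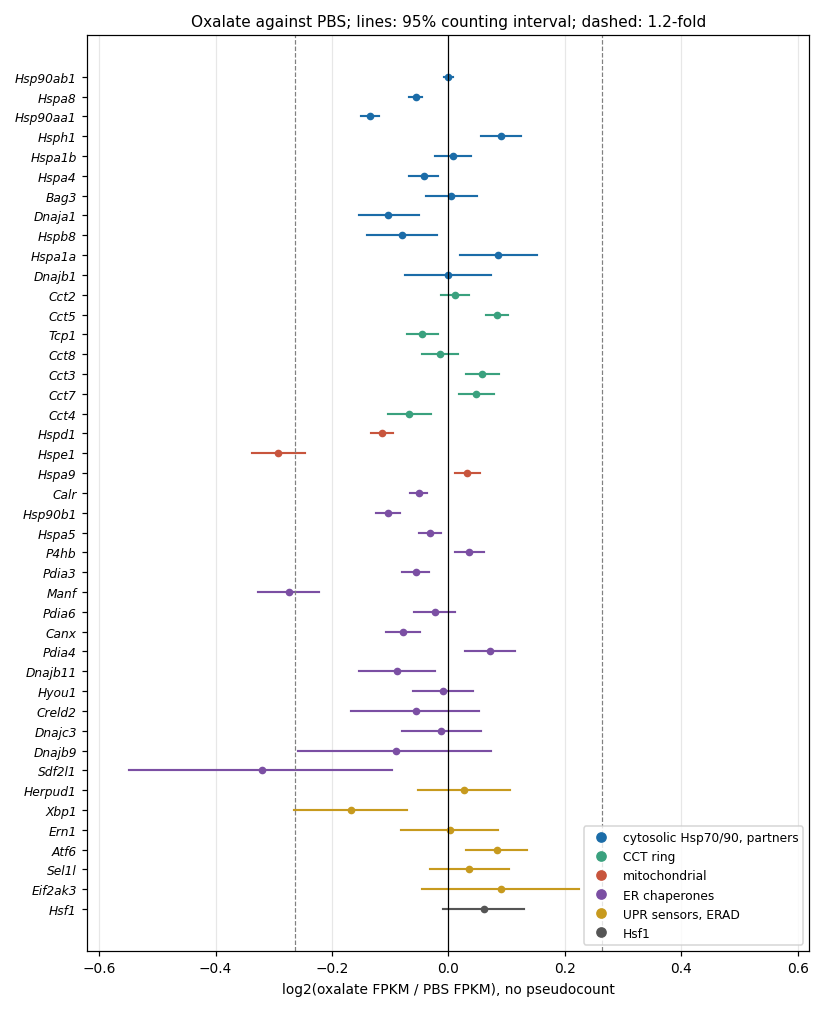
Log2 of oxalate over PBS FPKM without a pseudocount for the same 43 members, in the same order. Lines are 95% counting intervals of 1 library per condition and dashed lines mark 1.2-fold, which the points of Hspe1, Manf and Sdf2l1 pass on the lower side.

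The cytosolic chaperones held the largest share of the FPKM sum among the groups, at 1.65% in either library. Hsp90ab1, the constitutive Hsp90, was the gene with the 6th highest FPKM of the whole table in both libraries, at 5922.8 FPKM with PBS and 5920.08 with oxalate. Its ratio was -0.00066, with a counting interval from -0.0084 to 0.0070, and it became 0.020 after rescaling. Hsp90aa1, the stress-inducible Hsp90, was at 1041.55 and 949.06 FPKM, a ratio of -0.13 and the lowest of the group. The FPKM of Hsp90ab1 was thus 5.69 times that of Hsp90aa1 with PBS and 6.24 times with oxalate.

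Hspa8, the constitutive Hsp70, had 1764.57 FPKM with PBS and 1696.79 with oxalate (-0.056). The heat-inducible Hsp70 genes, which heat shock raises from low levels, stood well below it. Hspa1b was at 140.01 and 140.76 FPKM (0.0077), and Hspa1a at 27.29 and 28.96 (0.083). The reading frames of Hspa1a and Hspa1b share 98.1% of 1926 bases, so the way reads were divided between them is uncertain, and without both genes the group median was -0.042 in place of -0.0012. Of the exchange factors, Hsph1 (Hsp110), which also holds a heat shock element, had 142.44 and 151.63 FPKM (0.090, the highest ratio of all members), and Hspa4 had 128.25 and 124.52 (-0.042).

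Among the partners of Hsp70, Dnajb1, a stress-inducible Hsp40, had 22.98 FPKM with PBS and 22.96 with oxalate. Dnaja1 was at 63.31 and 58.95 FPKM (-0.10). Bag3, which links Hsp70 to autophagy and is a well-known target of HSF1, was at 71.65 and 71.91 FPKM, and the small heat shock protein gene Hspb8 at 56.34 and 53.31 FPKM (-0.078). Dnajb1 and Bag3 thus differed by less than their counting error, whereas the intervals of Dnaja1 and Hspb8 lay below equal levels. Centred on genes of similar GC content (GC centring), Dnaja1 was at -0.033 and Hspb8 at -0.11.

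Hspb1, which encodes the small heat shock protein Hsp27 (Hsp25 in the mouse), was listed at 0 FPKM with PBS and at 0.09 with oxalate, about 3 reads. Whether the listed 0 is a failed estimate was not tested, so no fold was computed and nothing is read from it about the level of the gene. Hsf1 itself was at 44.66 and 46.58 FPKM (0.059), with a counting interval from -0.0088 to 0.13.

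Of the 11 cytosolic genes compared, 4 were higher and 7 lower with oxalate, which became 6 and 5 after rescaling to the same FPKM sum and 2 and 9 after GC centring, when the median was -0.028. Their ratios ran from -0.13 to 0.090, all under 1.2-fold.

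The CCT ring is built from several related subunits, each the product of its own gene, and 7 of these genes were members. With PBS their levels ran from 135.01 FPKM (Cct4) to 749.05 (Cct2), a 5.55-fold span. With oxalate the span was 5.86-fold and the order was the same at the ends. The span depends on the lengths used. In estimated reads Cct2 had 37083 and Cct4 15813 with PBS, at mean coding transcript lengths of 870 and 2059 bases. Cct2 was at 749.05 and 754.91 FPKM (0.011) and Cct5 at 677.39 and 717.63 (0.083). The middle of the order held Tcp1 (359.57 and 348.56 FPKM, -0.045), Cct8 (323.94 and 320.84, -0.014), Cct3 (309.29 and 322.04, 0.058) and Cct7 (270.3 and 279.42, 0.048). Cct3 stood below Cct8 with PBS and above it with oxalate. Cct4 was lowest at 135.01 and 128.88 FPKM (-0.067). 4 subunits were higher and 3 lower, 5 and 2 after rescaling to the same FPKM sum, with a median of 0.011, and all 7 ratios were within 0.1 of no difference.

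Mitochondrial chaperones differed most among the groups in size, although with 3 genes only. Hspd1 encodes Hsp60, the chamber in which matrix proteins fold, and Hspe1 encodes Hsp10, its lid. Hspe1 had 263.89 FPKM with PBS and 215.54 with oxalate, a ratio of -0.29 with a counting interval from -0.34 to -0.25, the largest difference of all members on the scale with a pseudocount of 1. Without a pseudocount Sdf2l1 was further from 0 than Hspe1 (-0.32 against -0.29), as it was after rescaling (-0.28 against -0.27). Hspd1 was at 871.91 and 805.42 FPKM (-0.11, interval -0.13 to -0.096). In FPKM, Hspd1 therefore exceeded Hspe1 3.30-fold with PBS and 3.74-fold with oxalate. The pair overlaps by 112 bases on opposite strands in GENCODE M21, and without a stated strand the reads of that stretch cannot be told apart. Hspa9, the mitochondrial Hsp70 (mortalin), was at 258.33 and 264.21 FPKM, higher by 0.032.

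The ER chaperones had 13 of 15 genes lower with oxalate and 2 higher, by small amounts, and 11 lower and 4 higher after rescaling to the same FPKM sum. Their median ratio was -0.054, beside 0.0031 for all genes and -0.013 for the 967 genes with a mean of at least 100 FPKM. After rescaling it was -0.035, and after GC centring -0.044, with 12 genes lower and 3 higher. 49.0% of all genes compared were lower with oxalate, and 56.5% of the genes of at least 100 FPKM. In sum the group went from 2737 to 2633 FPKM.

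Hspa5, which encodes BiP, the chief ER Hsp70 and the usual reporter of the UPR, had 329.01 FPKM with PBS and 321.9 with oxalate, a ratio of -0.031 and a counting interval from -0.050 to -0.013. Hsp90b1, the ER Hsp90, was at 428.53 and 398.71 FPKM (-0.10, and -0.065 after GC centring). Hyou1, the exchange factor of BiP, was at 50.55 and 50.23 FPKM (-0.0090). BiP and Grp94 thus lay slightly below their PBS level, also after rescaling (-0.011 and -0.083), whereas Hyou1 was then at 0.012. For BiP that shift exceeded the semi-width of its counting interval (0.019). Whether the interval of BiP includes equal levels thus depends on the scaling.

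The ER Dnaj genes recruit BiP to its substrates. Dnajb11 (ERdj3) was at 52.98 and 49.83 FPKM (-0.087) and Dnajc3 at 15.52 and 15.39 (-0.011). Dnajb9 (ERdj4), a target of spliced XBP1, was at 9.85 and 9.25 FPKM (-0.082, counting interval -0.26 to 0.074); at its depth no difference could be detected.

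Calreticulin and calnexin hold sugar-bearing chains together with Pdia3. Calr had the highest FPKM of the ER members, at 775.82 with PBS and 748.92 with oxalate (-0.051). Canx was at 109.3 and 103.55 FPKM (-0.077, and -0.0087 after GC centring) and Pdia3 at 251.07 and 241.49 (-0.056). Among the other disulfide isomerases were the 2 ER members higher with oxalate, Pdia4 at 78.05 and 82.02 FPKM (0.071) and P4hb at 309.74 and 317.5 (0.036). GC centring left Pdia4 at 0.077 and P4hb at 0.0026. Pdia6 was at 135.86 and 133.66 FPKM (-0.023).

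The smaller UPR-inducible proteins of the ER held the largest differences of this group. Manf, a secreted protein that leaves cells under ER stress, had 160.21 FPKM with PBS and 132.48 with oxalate (-0.27, counting interval -0.33 to -0.22). Sdf2l1, a partner of the ER Dnaj proteins, was at 7.63 and 6.11 FPKM (-0.28). Its counting interval, without a pseudocount, ran from -0.55 to -0.097 on about 481 and 247 reads. Creld2 was at 22.74 and 21.87 FPKM (-0.054). The gene span of Manf overlaps Rbm15b on the same strand and Dcaf1 on the other. Whether their exons overlap was not examined, so part of its reads may be uncertain. The spans of Hspa1a, Dnaja1, Tcp1, Cct7, Cct8, Pdia3 and Pdia6 also overlap genes on the other strand.

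The 8 ER members with an ERSE or ERSE-II in their windows were all lower, with ratios from -0.10 (Hsp90b1) to -0.011 (Dnajc3). 7 of the 8 were lower after rescaling, when Dnajc3 was at 0.0084. The 5 ER members whose windows held neither, Dnajb9, Pdia3, Pdia4, P4hb and Sdf2l1, ran from -0.28 to 0.071, with 3 lower and 2 higher. Medians of the 2 sets were -0.052 and -0.056. Hyou1 (-0.0090) and Manf (-0.27) had no window and belong to neither set. Whether the ratio goes with the element was not tested.

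The sensors were present at low and nearly equal levels in both libraries. Ern1, which encodes IRE1α, had 20.64 FPKM with PBS and 20.67 with oxalate. Atf6 was at 17.29 and 18.31 FPKM (0.078, interval 0.030 to 0.14) and Eif2ak3, which encodes PERK, at 7.11 and 7.57 (0.080, interval -0.046 to 0.22). The FPKM of BiP was 46.3 times that of PERK with PBS and 42.5 times with oxalate. Xbp1 was the exception among these 6 genes, at 30.15 FPKM with PBS and 26.84 with oxalate (-0.16, interval -0.27 to -0.070). FPKM per gene do not separate spliced from unspliced Xbp1, so the activity of IRE1 was not measured here.

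ERAD draws misfolded proteins out of the ER for destruction. Herpud1, one of the most responsive UPR genes and a holder of ERSE-II, had 37.06 FPKM with PBS and 37.74 with oxalate (0.026). Sel1l, the scaffold of the HRD1 ligase, was at 13.02 and 13.35 FPKM (0.034). Of the 6 sensor and ERAD genes 5 were higher and 1 lower, 4 and 2 after GC or length centring, with a median of 0.030.

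The 3 members past 1.2-fold had short transcripts. Hspe1 has a coding transcript of 774 bases, those of Manf average 924 bases and that of Sdf2l1 has 1108. Cct2, the remaining compared member of the shortest bin described next, had a ratio of 0.011. Its 870 bases are an average over 6 coding transcripts, so its main transcript may be longer. Among all genes compared, divided by length into 10 bins, the shortest bin (204 to 963 bases) had a median ratio of -0.056 and 13.5% were at least 1.2-fold lower, whereas the longest bin had a median of 0.038 and 1.74%. Relative to genes of similar length, Hspe1 was at -0.23, Manf at -0.22 and Sdf2l1 at -0.27, so that 1 of the 3 stayed past 1.2-fold. The part of length in these differences was not tested. For the ER group the median was -0.053 on this scale, with 13 of 15 genes still lower, and the CCT ring went from 0.011 to 0.060. The CCT value depends on Cct2, which went from 0.011 to 0.067 by its average length.

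**Figure D3:**
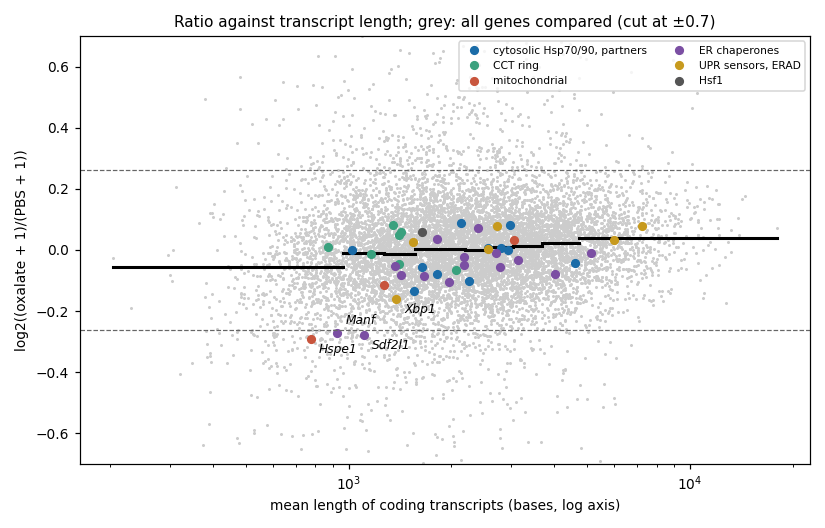
Log2((oxalate + 1)/(PBS + 1)) against the mean length of a gene's coding transcripts (log axis) for all genes compared (grey, drawn within ±0.7) and 43 members (coloured by group). Black bars are medians of 10 bins of genes by length, from -0.056 in the shortest to 0.038 in the longest, and Hspe1, Manf and Sdf2l1 lie below the dashed 1.2-fold line at the short end.

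Further genes of these pathways were read from 10 wider lists, of which 249 genes were in the table and 223 had a mean FPKM of at least 1. Of the 223, 86 were higher and 137 lower, 103 and 120 after rescaling, and their median was -0.031. 5 were at least 1.2-fold higher and 9 at least 1.2-fold lower, beside 4.75% and 5.19% of all genes compared. 2 and 1 passed 1.5-fold, beside 0.935% and 1.05% of all genes compared. The 2 were Ppp1r15a and Txndc5, and the 1 was Tbca.

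The PERK arm of the UPR slows translation and raises the factor ATF4, which in turn raises Ddit3 (CHOP) and Trib3. The list read for it, which also holds genes of the other eIF2α kinases and of eIF2α itself, had 17 genes compared. Of these 10 were higher and 7 lower (8 and 9 after length centring). Their median was 0.020, which was 0.041 after rescaling, 0.0028 after GC centring and -0.0063 after length centring. Ppp1r15a (GADD34), which restores translation by dephosphorylating eIF2α, had 8.28 FPKM with PBS and 13.22 with oxalate (0.62, interval 0.54 to 0.81 without a pseudocount). Cebpb, a transcription factor named after its values were seen, was the other gene of this list past 1.2-fold, with 56.74 and 80.21 FPKM (0.49, interval 0.44 to 0.56). Chac1, an ATF4-dependent gene also named after its values were seen, was just under 1.2-fold on the ratio scale, with 7.87 and 9.56 FPKM (0.25, interval 0.12 to 0.44). Differences between genes of the list were not tested. Atf4 was at 121.29 and 113.19 FPKM (-0.099), Ddit3 at 6.24 and 6.73 (0.094), Trib3 at 3.86 and 4.25 (0.11) and Atf3 at 3.3 and 2.88 (-0.15). The counting intervals of Ddit3, Trib3 and Atf3 included equal levels.

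In the wider ERAD list 9 of 29 genes were higher and 20 lower (12 and 17 after rescaling), the median being -0.040. Syvn1, which encodes the HRD1 ligase that Sel1l supports, had 23.04 FPKM with PBS and 28.76 with oxalate (0.31). Edem1, which delivers glycoproteins to ERAD, was at 8.85 and 8.54 FPKM (-0.046). Derl3, a strongly XBP1-dependent gene in secretory cells, was at 0.08 and 0.10 FPKM and below the filter. Os9 (-0.28) and Ube2j1 (-0.36), named after their values were seen, were the 2 genes of the list at least 1.2-fold lower.

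ER folding and oxidation genes numbered 38, 12 higher and 26 lower, with a median of -0.089 (-0.055 after GC centring). Txndc5, a disulfide isomerase of the ER, had 80.46 FPKM with PBS and 123.93 with oxalate (0.62, interval 0.59 to 0.66). Ero1l, the oxidase that recharges the isomerases, was at 14.05 and 12.78 FPKM (-0.13). The 33 translocon and glycosylation genes compared had 8 higher and 25 lower, a median of -0.051 (14, 19 and -0.030 after rescaling) and none past 1.2-fold in either direction. Other UPR regulators (13 genes) had a median of 0.0059, which was -0.0081 after GC and -0.0052 after length centring, with none past 1.2-fold.

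Cytosolic co-chaperones numbered 50, with 20 higher, 30 lower and a median of -0.025 (23, 27 and -0.0061 after rescaling). Stip1, which joins Hsp70 to Hsp90, was at 482.11 and 474.89 FPKM (-0.022). Dnajb4 (0.31) was the gene at least 1.2-fold higher, and Dnajb6 (-0.30), Ptges3 (-0.34) and Ppid (-0.37) were those at least 1.2-fold lower, all named after their values were seen. Prefoldin and tubulin-folding partners of the CCT ring (14 genes) had a median of -0.083. Among them the tubulin cofactor Tbca was at 54.75 and 36.09 FPKM (-0.59), with transcripts of 528 bases on average, and Vbp1 (-0.39) and Tbcc (-0.32), named after their values were seen, were the others past 1.2-fold.

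Small heat shock proteins (4 genes compared) had a median of -0.019, above 0 after rescaling or length centring, and Cryab, the αB-crystallin gene, was at 32.64 and 30.25 FPKM (-0.11). Of the other heat shock factors Hsf2 was at 7.52 and 7.08 FPKM (-0.076). The wider mitochondrial list had 11 genes higher and 12 lower (15 and 8 after rescaling), and its median of -0.0093 became 0.012. Trap1, the mitochondrial Hsp90, was at 78.77 and 77.97 FPKM (-0.015). Atf5 (-0.39), a factor of the mitochondrial stress response named after its values were seen, was the gene of this list past 1.2-fold.

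**Figure D4:**
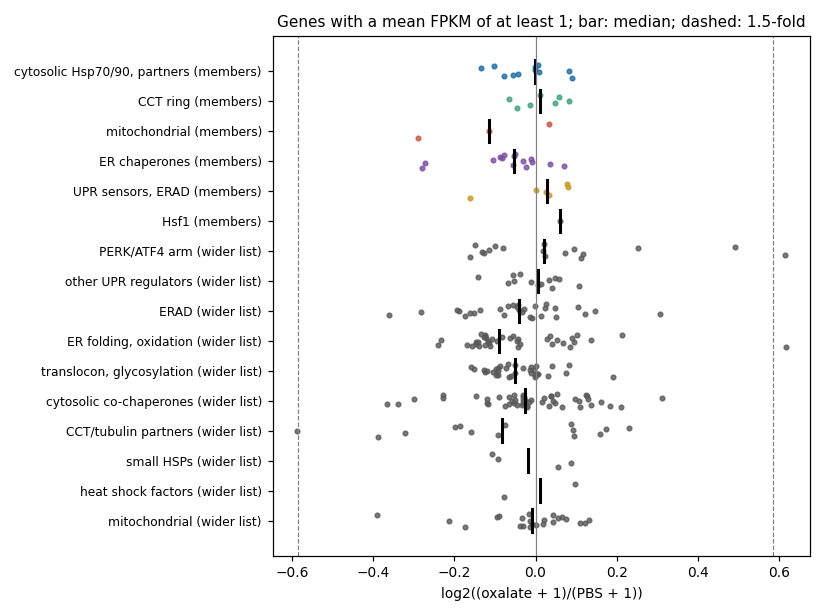
Log2((oxalate + 1)/(PBS + 1)) of each gene with a mean FPKM of at least 1 in the 6 member groups (coloured) and the 10 wider lists (grey); black bars are medians and dashed lines mark 1.5-fold. Medians lie between -0.11 (mitochondrial members) and 0.059 (Hsf1 alone), and Ppp1r15a, Txndc5 and Tbca pass the 1.5-fold lines.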

How the data were processed

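RNA of 4T1 cells was measured in 2 libraries, 1 per condition. The authors deposited FPKM values (fragments scaled to transcript length and mapped fragments), rounded to 2 decimals, for 21911 Ensembl identifiers. Bowtie2 2.2.8 and TopHat2 2.1.1 are named in the submitters' processing notes; the genome build, the annotation and the quantification tool were not given in the sources used here. The table was used whole, with 0 columns left out.

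Symbols and transcript lengths were taken from GENCODE M21 (GRCm38), which matched 21848 identifiers. The ratio was log2((oxalate + 1)/(PBS + 1)) over the 10267 genes whose 2 values averaged 1 FPKM or more; it understates changes of low genes. No test of the conditions was possible with 1 library each. Reads were estimated from the steps in which low FPKM values of single-transcript genes moved, 0.0176 FPKM per read and kilobase with PBS and 0.0274 with oxalate (130 and 117 genes), about 56900000 and 36500000 reads. Among short genes with several transcripts and up to 10 reads, values within 0.2 of a whole read made up 96.2% of 52 with PBS and 95.6% of 45 with oxalate. From these reads exact (Clopper-Pearson) 95% intervals of the ratio were computed, which cover counting error only.

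Members and lists were chosen with earlier results of these data known. All 44 members are named, as are genes of the wider lists past 1.5-fold and Atf4, Ddit3, Atf3, Trib3, Syvn1, Derl3, Edem1, Ero1l, Hsf2, Trap1, Stip1 and Cryab whatever their values. Cct6a was not analysed here. Promoter windows (250 bases before to 50 after the start) were RefSeq's. Alternatives were other pseudocounts, filters and scalings, GC and length centring and leaving out both Hspa1 genes. The scripts were tested on simulated data. Computations ran in scipy 1.17.1, pandas 2.3.3 and numpy 2.4.6 under Python 3.11.15, and plots in matplotlib 3.10.9.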

Additional observations from a re-analysis of the deposited data

How the results depend on the processing

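No paired analysis was possible because PBS and oxalate had a single library each, which also meant that none could be left out. Shifts of a median beyond the median semi-width of its genes' counting intervals, and changes of a count beyond 1.5 times, were taken as moves. Of 96 values of the group medians and counts under 10 alternatives, 93 stayed within these limits and 3 did not. The median of the cytosolic chaperones went from -0.0012 to -0.042 without Hspa1a and Hspa1b, which were both among the 4 higher genes of 11. The 9 genes left were 2 higher and 7 lower. With ratios centred on genes of similar transcript length, an alternative chosen after the values were seen, the CCT ring median went from 0.011 to 0.060, and the 3 genes lowered 1.2-fold became 1, Sdf2l1. That CCT median depends on Cct2, binned by an average over 6 coding transcripts, which went from 0.011 to 0.067. The CCT median also went to 0.00014 after GC centring. Of 258 values of single members, 20 moved and 14 had the other sign, in 10 members whose ratio was at most 0.034 either way; the cause was not tested. Hspe1, Sdf2l1 and Manf kept their sign in each. Counts at 1.5-fold were 0 under each alternative run. Depth limits the low members: Sdf2l1 and Eif2ak3 rest on about 247 and 751 reads in the oxalate library.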
